A study of Mus musculus with 51 samples.

Results

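The Slc25 family comprises nuclear-encoded carriers, most of them in the inner mitochondrial membrane, and its members were taken as every gene whose symbol starts with Slc25a in the deposited tables of 6 tissues. There were 41 such genes among the 14606 genes found in any table, and 32 of them stood in all 6 tables. By tissue, 36 members were listed in duodenum, 36 in jejunum, 38 in ileum, 36 in liver, 40 in subcutaneous white adipose tissue (WAT) and 38 in gastrocnemius muscle. The reference annotation holds 47 protein-coding genes of this name. The other 6 (Slc25a2, Slc25a18, Slc25a31, Slc25a41, Slc25a43 and Slc25a54) were not analysed here. Slc25a21, the oxoadipate carrier, was listed in the liver table only.

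All mice were male C57Bl6 animals made obese by a high fat diet, with no engineered allele in the labels. Each had either Roux-en-Y gastric bypass (RYGB), which joins a small stomach pouch to the jejunum, or a sham operation, and tissue was taken 9 weeks later at 10 am after an overnight fast. Both groups passed through a liquid elemental diet and returned stepwise to the high fat diet, and the sham mice were kept at the weight of the bypass mice by restricted food, so bypass and the difference in rations cannot be told apart. The 51 libraries came from 10 animals, 5 per operation, with 5 sham and 4 RYGB libraries in duodenum, jejunum and WAT, 5 and 2 in ileum, 4 and 5 in liver, and 4 and 4 in muscle. Gut samples were scraped villi, so each is a mixture of cells. The source label of the RYGB muscle libraries names the sham operation, and their group was taken from the title and the surgery label.

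These carriers exchange metabolites, nucleotides, cofactors and ions between the cytosol and the mitochondrial matrix, and most are built on the same repeated pair of membrane helices. In adipocytes the citrate carrier supplies the acetyl-CoA for fatty acid synthesis, whereas the adenine nucleotide and phosphate carriers serve oxidative phosphorylation in every cell. Mitoferrins bring iron to the sites of haem and iron-sulphur cluster assembly, and carriers for ornithine and aspartate link mitochondria to the urea cycle in liver.

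Values are CPM, reads of a gene scaled to a common library total. The listed genes of a library summed to between 978879 and 993560 CPM. Read totals could be inferred from the spacing of low values only in 5 liver libraries (sham 1 and 2, RYGB 2, 3 and 4), at 4220000 to 4870000 reads. Each tissue was identified by its markers: the enterocyte list summed to 20667 to 79438 CPM in the gut libraries, the hepatocyte list to 44206 to 121920 CPM in liver, the adipocyte list to 17546 to 36128 CPM in WAT and the skeletal muscle list to 70821 to 162010 CPM in muscle. The sham 4 ileum library stood apart, with a cycling and crypt cell list at 4348 CPM against 9.9 to 395 CPM in the other ileum libraries and the lowest enterocyte sum. In duodenum, sham 1, 2 and 3 had pancreatic acinar sums of 59925, 88115 and 60423 CPM. Their enterocyte sums were lower, at 24536, 40706 and 41675 CPM, and the duodenal sham levels below include these libraries.

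In sham mice, which carriers dominated depended on the tissue, as the plot of sham levels per kilobase of exon shows. Levels between genes are given here as CPM per kb, and since the tables were scaled separately no test was made across tissues. Slc25a5, the widely expressed adenine nucleotide carrier, ranked first of the listed members in all 3 gut segments and in liver, with 441 ± 94.0 CPM per kb in duodenum (SD, n = 5), 522 ± 149 in jejunum (n = 5), 280.0 ± 61.4 in ileum (n = 5) and 358 ± 117 in liver (n = 4). In muscle and WAT that place went to Slc25a4, the isoform of heart and muscle, at 1053 ± 53.3 CPM per kb in muscle (n = 4) and 57.5 ± 2.62 in WAT (n = 5). Slc25a3, the phosphate carrier, was second in duodenum (180 ± 42.4 CPM per kb), jejunum (155 ± 38.9) and WAT (50.7 ± 5.30), and ranked 3 in ileum (120 ± 7.69) and muscle (151 ± 34.1). In WAT the levels of Slc25a4 and Slc25a3 lay within the sum of their SDs, as did those of Slc25a3 and the third, Slc25a5 (43.8 ± 1.70 CPM per kb).

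Other places in the order were held by carriers of amino acids and cofactors. Slc25a15, which exchanges ornithine for citrulline, was second in liver at 341 ± 237 CPM per kb and ranked 3 in jejunum at 134 ± 21.1. Its liver level ranged from 773 to 3772 CPM over the 4 sham libraries, and its order against Slc25a5 was not separable from that spread. Slc25a16, implicated in coenzyme A supply, ranked 3 in liver (134 ± 55.1 CPM per kb). Slc25a24, an ATP-Mg/phosphate carrier, was second in ileum (143 ± 36.1 CPM per kb), where its SD overlapped that of Slc25a3. Slc25a11, the oxoglutarate/malate carrier, was second in muscle (161 ± 40.0 CPM per kb) and ranked 3 in duodenum (95.6 ± 25.3). Its order against Slc25a3 in muscle and against Slc25a15 in duodenum (90.1 ± 21.9) was not separable from the spread, nor was that of Slc25a3 and Slc25a15 in jejunum.

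The pair of aspartate/glutamate carriers had opposite distributions. Slc25a13 (citrin) stood at 380 ± 125 CPM in sham liver (n = 4), between 30 and 38.4 CPM on average in the gut segments, and at 1.46 ± 0.716 CPM in WAT and 2.30 ± 1.11 CPM in muscle. Slc25a12 (aralar) stood at 456 ± 43.3 CPM in muscle and between 4.98 and 12.6 CPM on average elsewhere. Slc25a27 and Slc25a29 were listed in WAT and muscle only, and Slc25a10, the dicarboxylate carrier, was not listed in muscle.

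**Figure D1:**
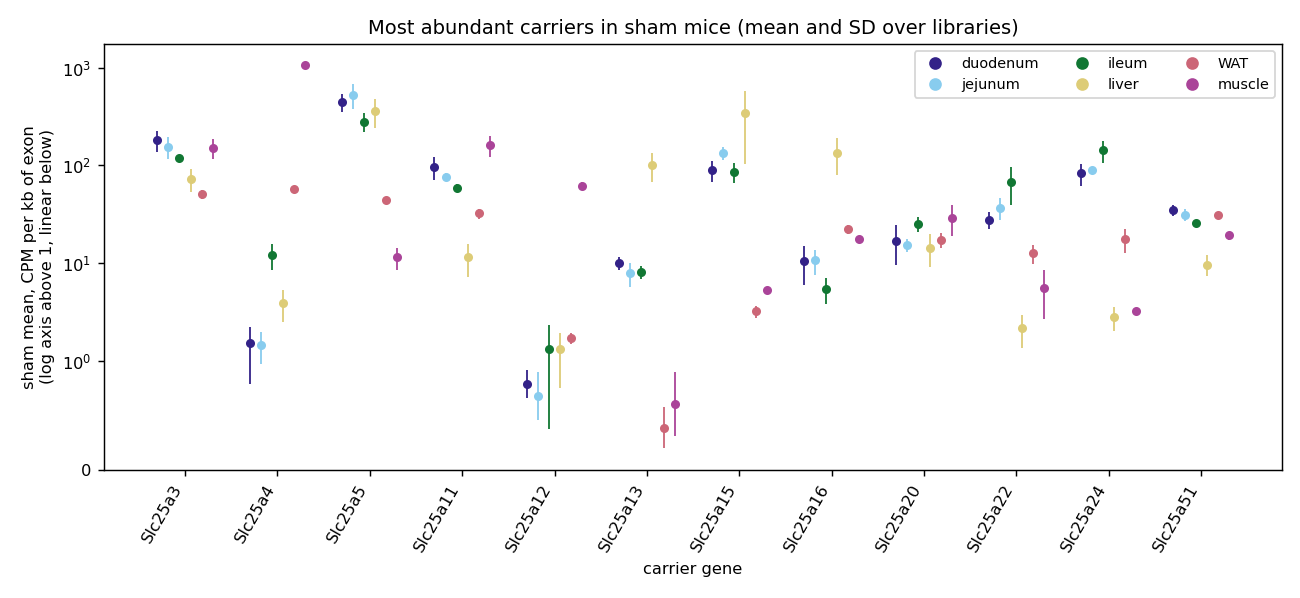
Mean level in sham mice of 12 abundant carriers in 6 tissues, in CPM per kb of exon (log axis above 1, linear below); points are means and bars SD over the sham libraries. Slc25a4 in muscle (1053) is the highest point, Slc25a5 leads in gut and liver, and Slc25a12 and Slc25a13 change places between muscle and liver.

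RYGB against sham was tested in each tissue with limma on log2(CPM + 1), over all genes of the tissue, and a carrier is said to have risen or fallen where its Benjamini-Hochberg adjusted p was below 0.05. Fold changes are differences of log2(CPM + 1), RYGB minus sham, given with their SE. In these bulk samples, fewer cells of a type and less RNA per cell cannot be told apart. WAT held most of the calls: 16 of 40 members rose and 6 fell, beside 14.3% and 26.3% of the 12690 genes tested. In jejunum 1 of 36 rose and 2 fell (background 6.32% and 6.29%), and in liver 1 of 36 rose and 1 fell (2.03% and 2.6%). None passed in duodenum (background 0.128% and 0.22%), ileum (0% and 0%) or muscle (0% and 0%). At an unadjusted p below 0.05, 4 members were higher and 3 lower in duodenum (17.6% and 5.11% of all genes), 1 and 2 in ileum (1.69% and 1.95%), and 0 and 3 in muscle (4.02% and 2.98%). The same counts were 4 and 5 in jejunum (16.9% and 13.6%), 8 and 7 in liver (20.6% and 13.2%) and 18 and 7 in WAT (17.9% and 32.8%).

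Groups that did not overlap were counted too, as libraries of RYGB all above or all below those of sham. In WAT 14 members were above and 4 below (11.7% and 22% of all genes), in jejunum 1 and 2 (7.53% and 6.75%), in liver 2 and 1 (4.34% and 8.01%), in duodenum 2 and 2 (5.88% and 1.69%), in ileum 2 and 2 (3.15% and 4.94%), and in muscle 0 and 1 (1.91% and 1.96%). By the adjusted test the share of members in WAT was 40% up and 15% down, above the background in the first direction and below it in the second. Outside WAT each of these counts rests on 2 members or fewer.

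The median fold change of the members was 0.26 in WAT, where the median of all genes was -0.16. In the other tissues the member and all-gene medians were 0.16 and 0.15 in duodenum, 0.37 and 0.26 in liver, 0.06 and -0.09 in ileum, and within 0.1 of 0 in jejunum and muscle. Scaling by median of ratios moved the all-gene median to 0.00 in WAT, -0.01 in duodenum and 0.09 in liver, and the member medians to 0.41, -0.00 and 0.23.

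**Figure D2:**
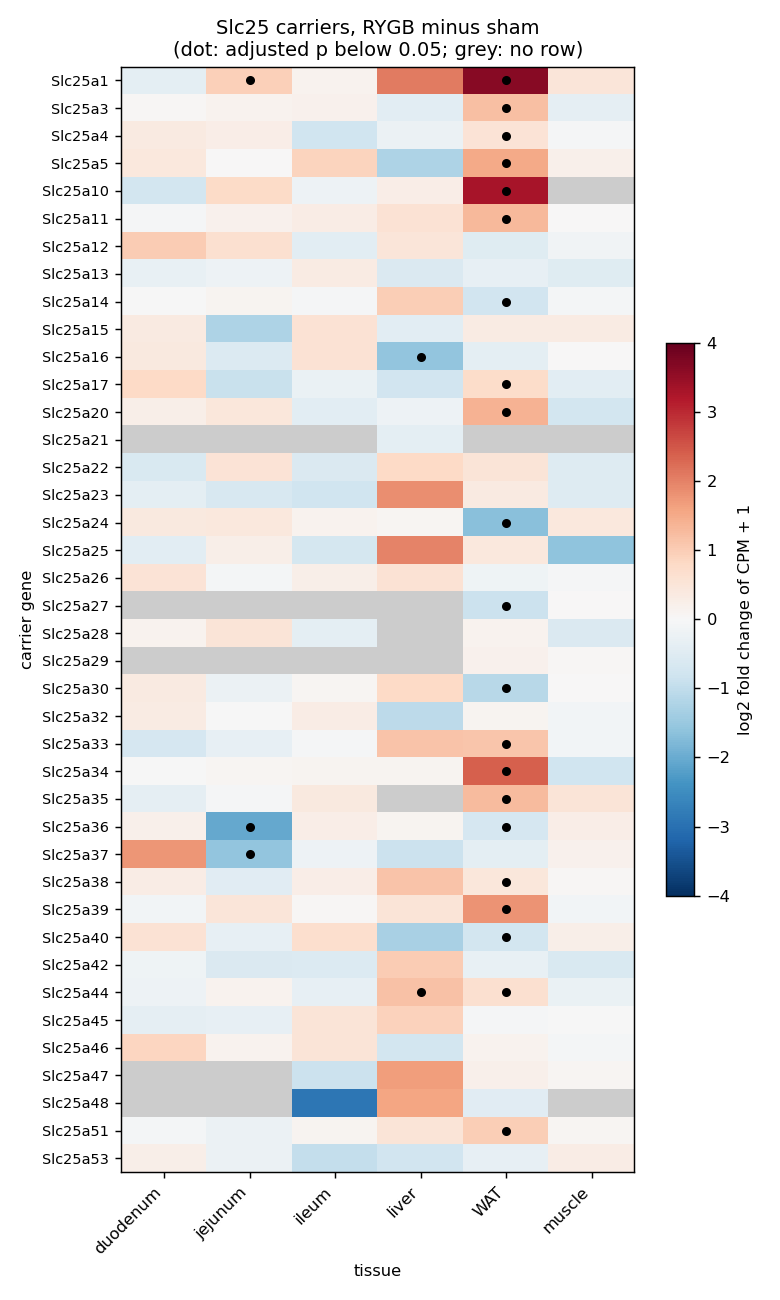
Fold change (RYGB minus sham, log2 of CPM + 1, colour) of 40 carriers (rows) in 6 tissues (columns); dots mark an adjusted p below 0.05 and grey marks a gene not listed for the tissue. Dots gather in the WAT column (21), with 3 in jejunum and 2 in liver.

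In WAT the carboxylate carriers had the 2 largest fold changes among the 40 members. Slc25a1, the citrate carrier, measured 50.6, 56.8, 36.3, 41.7 and 75.8 CPM in sham 1 to 5 and 1309, 627.5, 303 and 692 CPM in RYGB 1 to 4. Every RYGB library was above every sham library, and RYGB 1 was the highest. The rise was 3.65 ± 0.36 (adjusted p = 0.00011). Slc25a10, which exchanges malate or succinate for phosphate, measured 13.6, 23.8, 12.1, 9.1 and 12.2 CPM in sham and 274.5, 113, 78.9 and 159.5 CPM in RYGB. The groups did not overlap, and RYGB 1 was again highest and RYGB 3 lowest among the bypass mice. Slc25a10 rose by 3.29 ± 0.35 (adjusted p = 0.00016). Slc25a11, the third carboxylate carrier listed in WAT, rose by 1.31 ± 0.17 (adjusted p = 0.00042), from 59.6 to 77.2 CPM in sham to 120 to 201 CPM in RYGB.

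Slc25a1 lies on the minus strand of chromosome 16 (GRCm38, 17925223 to 17928219) and Slc25a10 on the plus strand of chromosome 11 (120491840 to 120499187). Since these genes had the largest rises, the 250 bases before each start in RefSeq (build GRCm38.p6) are shown for comparison, at chr16:17928220-17928469 (minus strand) and chr11:120491587-120491836 (plus strand). Capitals mark matches on either strand to an E-box (the letters CACGTG), a GC box (spelled GGGCGG), the box spelled CCAAT or a nuclear receptor half-site (spelled AGGTCA). These 4 motifs share no match in the windows shown.
Slc25a1: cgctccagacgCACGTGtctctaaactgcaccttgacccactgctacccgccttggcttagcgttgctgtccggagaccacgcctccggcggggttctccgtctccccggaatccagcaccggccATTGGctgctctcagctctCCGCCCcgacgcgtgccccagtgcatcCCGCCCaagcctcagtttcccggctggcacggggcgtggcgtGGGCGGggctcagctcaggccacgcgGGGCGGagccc
Slc25a10: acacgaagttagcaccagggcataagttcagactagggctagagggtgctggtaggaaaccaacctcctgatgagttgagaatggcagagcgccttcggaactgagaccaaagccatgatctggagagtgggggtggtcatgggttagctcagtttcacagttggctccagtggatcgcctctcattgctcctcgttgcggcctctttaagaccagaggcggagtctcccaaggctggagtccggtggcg
The Slc25a1 window holds the E-box 239 to 234 bases before the start, a CCAAT box 125 to 121 bases before it and 4 GC boxes, whereas none of these letters stands in the Slc25a10 window. Of 32851 windows of this length in the RefSeq table, 6.02% hold the E-box, 32.7% the GC box, 33.9% the CCAAT box and 14% the half-site. Of the 32 members with a window in the table, 6 hold the E-box, 24 the GC box, 18 the CCAAT box and 4 the half-site. Members were counted as genes with a match in any of their windows, so these counts do not compare directly with the percentages per window. The motif hits are matches of letters, and binding was not measured.

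The carriers that serve ATP synthesis rose together in WAT: all 3 listed members passed the test (14.3% of all genes rose). Slc25a5 measured 68.2, 75.2, 74.3, 70.9 and 71.8 CPM in sham and 254.5, 273.5, 145 and 188 CPM in RYGB, without overlap, and rose by 1.52 ± 0.18 (adjusted p = 0.00027). Slc25a3 rose by 1.19 ± 0.22 (adjusted p = 0.0021), from 248 to 328 CPM in sham to 429 to 1009.5 CPM in RYGB. Slc25a4, the most abundant member in sham WAT per kb, had the smaller rise of 0.54 ± 0.14 (adjusted p = 0.012), from 129 to 142 CPM to 150.4 to 232 CPM. Per kb of exon, Slc25a5 stood at 131 ± 36.1 CPM per kb in RYGB (SD, n = 4) and Slc25a4 at 84.9 ± 14.8, where the sham levels were 43.8 ± 1.70 and 57.5 ± 2.62.

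Slc25a20, which brings acylcarnitines into the matrix for oxidation, measured 77.8, 90.6, 67.6, 78.9 and 105 CPM in sham and 173.5, 289, 149 and 308 CPM in RYGB. The groups did not overlap, and RYGB 2 and 4 were highest. It rose by 1.39 ± 0.23 (adjusted p = 0.0013). Of the 4 other genes of the carnitine system listed in WAT, Crat (1.55 ± 0.22) and Cpt2 (1.45 ± 0.14), which form and split acylcarnitines inside mitochondria, also rose. Cpt1a, the outer-membrane enzyme that makes them, fell by 1.85 ± 0.29, and Slc22a5, the carnitine importer of the plasma membrane, fell by 0.79 ± 0.14 (adjusted p = 0.00065, 0.00011, 0.00096 and 0.0020 in that order).

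Among the 8 carriers of nucleotides and cofactors, 4 rose and 1 fell, where 14.3% and 26.3% of all genes did so. Slc25a51, the NAD carrier, rose by 0.99 ± 0.18 (adjusted p = 0.0019), from 162 to 190.1 CPM in sham to 248 to 486 CPM in RYGB. Slc25a33, a pyrimidine nucleotide carrier, measured 11.9, 11.5, 12.9, 12.6 and 12.1 CPM in sham and 22.6, 36.8, 21.0 and 31.7 CPM in RYGB, without overlap, and rose by 1.10 ± 0.18 (adjusted p = 0.0011). Its relative Slc25a36 moved the other way: it fell by 0.67 ± 0.17 (adjusted p = 0.0098), with RYGB 3 (127 CPM) inside the sham range of 123 to 153.5 CPM. Slc25a17, a cofactor carrier of peroxisomes, rose by 0.73 ± 0.14 (adjusted p = 0.0029). With a length and GC trend taken out of each library the difference of Slc25a36 shrank to -0.10 (adjusted p = 0.54).

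The glutathione carriers differed within their group. Slc25a39 measured 45.1, 55.2, 37.4, 37.5 and 53.1 CPM in sham and 168, 196, 92.7 and 212 CPM in RYGB, without overlap, and rose by 1.80 ± 0.24 (adjusted p = 0.00044). Its close relative Slc25a40 fell by 0.72 ± 0.24 (adjusted p = 0.036), though RYGB 3 (18.0 CPM) lay within the sham range of 16.6 to 19.0 CPM. Under median-of-ratios scaling the difference of Slc25a40 was -0.55 (adjusted p = 0.072). Of the 7 amino acid carriers 2 rose, beside the same 14.3%: Slc25a44, which takes up branched-chain amino acids, rose by 0.64 ± 0.16 (adjusted p = 0.0090), and Slc25a38, the glycine carrier of haem synthesis, by 0.45 ± 0.14 (adjusted p = 0.028).

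Of the carriers related to the uncoupling proteins all 3 listed in WAT fell, where 26.3% of all genes fell. Slc25a30 fell by 1.09 ± 0.24 (adjusted p = 0.0054), Slc25a27 by 0.87 ± 0.23 (adjusted p = 0.012) and Slc25a14 by 0.78 ± 0.17 (adjusted p = 0.0049). For Slc25a30, RYGB 3 (37.0 CPM) lay above the lowest sham library (36.8 CPM). Without the 3 libraries left out for transcripts of other cells (RYGB 1, RYGB 4 and sham 3) neither Slc25a30 (-0.71, adjusted p = 0.11) nor Slc25a27 (-0.72, adjusted p = 0.085) passed. Calls over all genes were also fewer in that fit, with 626 up and 1080 down against 1812 and 3341 with all libraries. Slc25a27 and Slc25a14 were scarce, at 7.84 ± 1.25 and 7.34 ± 0.865 CPM in sham (SD, n = 5). Slc25a24, an ATP-Mg/phosphate carrier regulated by calcium, had the largest fall of the family in WAT: 57.5, 51.5, 84.6, 66.2 and 40.8 CPM in sham and 11.6, 14.5, 27.9 and 20.4 CPM in RYGB. All RYGB libraries were below all sham libraries, and the fall was 1.67 ± 0.26 (adjusted p = 0.0011). Its homologue Slc25a25 did not pass, with 52.3 ± 16.1 CPM in sham and an average of 84.3 CPM in RYGB.

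Of 6 members with little or no assigned cargo, 2 rose (14.3% of all genes). Slc25a35 rose by 1.26 ± 0.29 (adjusted p = 0.0062), from 10.7 to 19.0 CPM to 23.6 to 65.6 CPM; 31.3% of its exon bases lie under another gene, Rangrf, so its reads may be divided uncertainly. Slc25a34 measured 1.5, 1.8, 2.1, 2.3 and 4.9 CPM in sham and 1.5, 115.5, 8.9 and 31.5 CPM in RYGB. RYGB 1 lay at the lowest sham value and RYGB 2 far above the rest, so the rise of 2.38 ± 0.87 (adjusted p = 0.048) rested on a few libraries, and it passed in 2 of the 9 fits that left out a library. Both mitoferrins and the outer-membrane member Slc25a46 stayed short of the threshold in WAT.

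**Figure D3:**
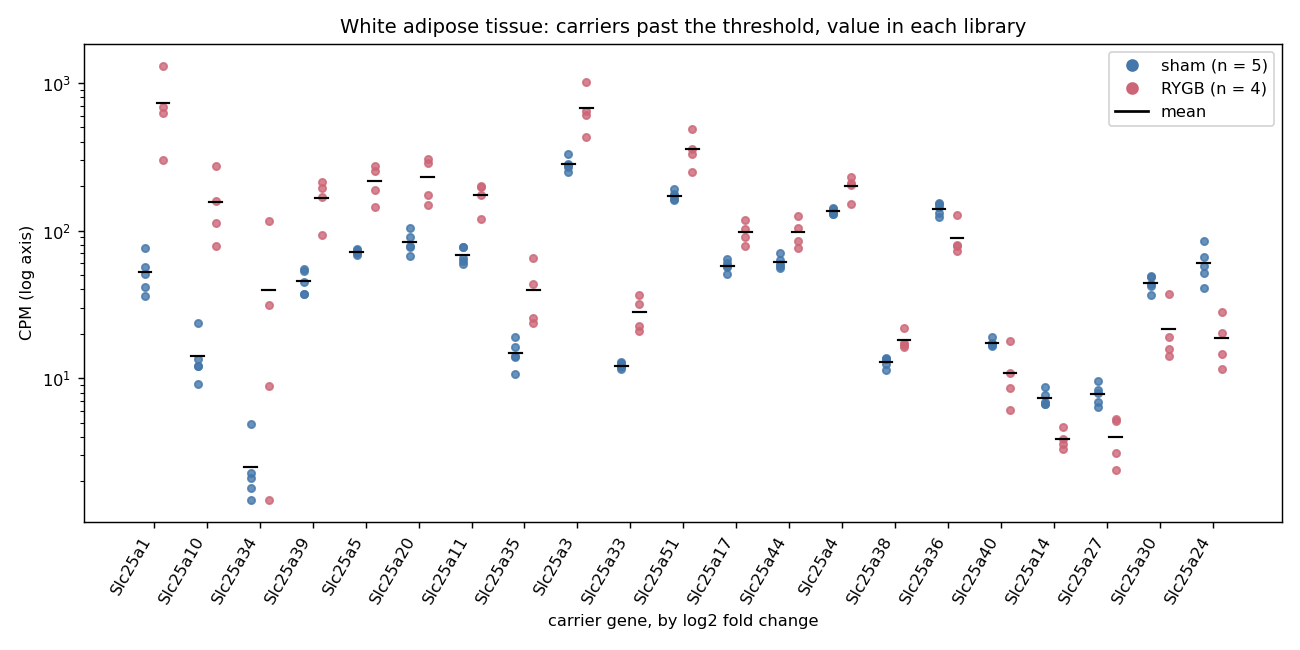
Carriers past the threshold in WAT (21 shown), in CPM on a log axis, ordered by fold change; each point is a library (5 sham, 4 RYGB) and each line a group mean. Slc25a1 and Slc25a10 at the left separate most, and the points of Slc25a34, Slc25a36, Slc25a40 and Slc25a30 overlap between groups.

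Summed over the members, the family took 1930 to 2197 CPM in the sham WAT libraries and 4796, 4815, 2806 and 4278 CPM in RYGB 1 to 4, so every RYGB library was above every sham library. In the other 5 tissues the ranges of the group sums overlapped.

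Genes that work with the carriers, from lists chosen for their function, gave the following counts in WAT, each to be read beside the 14.3% and 26.3% of all genes that rose and fell. All 5 enzymes that use cytosolic citrate rose, among them Fasn (fatty acid synthase, 5.99 ± 0.40, adjusted p = 2e-05), Acaca (2.69 ± 0.34, adjusted p = 0.00038) and Acly, which splits citrate (2.51 ± 0.67, adjusted p = 0.013). Of 13 markers of mitochondrial content, 12 rose and none fell, with a median of 1.18; citrate synthase (Cs) rose by 1.62 ± 0.22 (adjusted p = 0.00054) and Tfam did not pass. The import route of the carriers through TIM22 had 5 of 9 genes up and 1 down. Mdh1 and Mdh2 of the malate-aspartate shuttle rose by 1.82 ± 0.25 and 1.98 ± 0.29 and Got2 fell by 0.59 ± 0.19 (adjusted p = 0.00058, 0.00072 and 0.027). Of the family members that carry other symbols, Mtch2 rose by 1.35 ± 0.17 (adjusted p = 0.00037), Mtch1 by 0.42 ± 0.14 (adjusted p = 0.037) and Ucp1, the uncoupling protein of brown fat, by 5.90 ± 1.31 (adjusted p = 0.0055).

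Some markers of other cell types also differed between the groups in WAT, whereas no lymphocyte, cycling and crypt cell or erythroid marker passed the threshold. All 7 brown or beige adipocyte markers, Ppargc1a among them, rose, and their sum was 27.2 to 73.3 CPM in sham and 249.5, 771.5, 287 and 3796 CPM in RYGB 1 to 4, with none of the 7 at 0 in any library; Ucp1 alone measured 0.4 to 35.0 CPM in sham and 18.6, 191, 149 and 2927 CPM in RYGB. RYGB 4 also had the highest lymphocyte sum (718 CPM against 22.2 to 181 CPM in the other WAT libraries). The smooth muscle list, with 1 of 4 markers up and 2 down, summed to 381 to 1161 CPM in sham and 91.6 to 199 CPM in RYGB. The hepatocyte list, with 2 of 7 up and 2 down, summed to 497 to 1597 CPM in sham and 2801 to 16524 CPM in RYGB, while Alb itself was at 62.7 to 273 CPM in sham and 54.1 to 65.6 CPM in RYGB. The called carriers were not all highest in the same bypass library. Slc25a1 was highest in RYGB 1 (1309 CPM), which had the lowest brown or beige sum of the bypass mice. Slc25a20 was highest in RYGB 4 (308 CPM), which had the highest sum. A trend with gene length also separated the groups: Spearman's rho across genes between each gene's deviation from its mean over the WAT libraries and its exon length was 0.28 to 0.41 in the sham libraries and -0.29, -0.41, 0.09 and -0.39 in RYGB 1 to 4. The part of these in the results was not tested. With the trends of length and GC removed, 18 of the 22 called members still passed (all but Slc25a34, Slc25a36, Slc25a38 and Slc25a40). Without RYGB 4 it was 19, with Slc25a34 and Slc25a40 among those lost. Without RYGB 1, RYGB 4 and sham 3 it was 11, with RYGB 2 and RYGB 3 the only bypass libraries kept. Of all 12690 genes that fit called 626 up and 1080 down, against 1812 and 3341 with all libraries. RYGB 1, RYGB 4 and sham 3 were left out as the highest library of a list whose top sum passed 3 times the tissue median. The lists were erythroid for RYGB 1, lymphocyte and brown or beige adipocyte for RYGB 4, and smooth muscle for sham 3. The hepatocyte list was not in that rule, so RYGB 2 (16524 CPM) was kept. Across all the alternatives run in WAT, 10 members passed each time: Slc25a1, Slc25a5, Slc25a10, Slc25a11, Slc25a14, Slc25a20, Slc25a24, Slc25a33, Slc25a39 and Slc25a51.

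In jejunum the iron carrier and a pyrimidine nucleotide carrier fell. Slc25a37 (mitoferrin 1), which supplies iron for haem, measured 133, 152, 209.5, 166 and 153 CPM in sham and 38.0, 66.8, 35.5 and 86.1 CPM in RYGB. All 4 RYGB libraries were below all 5 sham libraries, and the fall was 1.59 ± 0.26 (adjusted p = 0.0067). Slc25a36 measured 425, 479.5, 845, 610 and 537 CPM in sham and 68.5, 136, 96.5 and 361 CPM in RYGB. The groups did not overlap, RYGB 4 lay closest to sham, and the fall was 2.06 ± 0.42 (adjusted p = 0.017). Both falls passed in all 9 fits that left out a library and with length and GC trends removed.

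Slc25a36 lies on the minus strand of chromosome 9 (GRCm38, 97074961 to 97111157) and Slc25a37 on the minus strand of chromosome 14 (69241848 to 69285112). The 250 bases before the RefSeq start of Slc25a36 (chr9:97111042-97111291, minus strand, GRCm38.p6) are shown because this gene fell in both jejunum and WAT, with the same motifs in capitals. The RefSeq start lies inside the gene as the GENCODE positions give it, so a part of this window is within those bounds.
Slc25a36: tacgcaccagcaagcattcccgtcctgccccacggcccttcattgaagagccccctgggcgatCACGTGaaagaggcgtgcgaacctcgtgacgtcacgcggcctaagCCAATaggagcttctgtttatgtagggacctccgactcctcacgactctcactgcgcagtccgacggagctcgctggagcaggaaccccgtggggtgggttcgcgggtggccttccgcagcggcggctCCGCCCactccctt
It holds an E-box 187 to 182 bases before the start, a CCAAT box and 1 GC box, the same motifs as the window of Slc25a1. That gene moved in the other direction in both tissues by the main test. With length and GC trends removed, neither the fall of Slc25a36 in WAT nor the rise of Slc25a1 in jejunum passed.

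Slc25a1 was the carrier that rose in jejunum, with 69.5, 60, 75.5, 68.7 and 70.5 CPM in sham and 199.5, 100.5, 174.5 and 91.0 CPM in RYGB. The groups did not overlap, and RYGB 1 and 3 were the high libraries. The rise was 0.95 ± 0.23 (adjusted p = 0.025), short of the threshold with length and GC trends removed (0.62, adjusted p = 0.068) and in 5 of 9 fits that left out a library (sham 1, 2 or 4, or RYGB 1 or 3; the highest adjusted p was 0.073). Slc25a10 was at 43.5, 44.0, 19.9, 36.9 and 43.9 CPM in sham and 88.4, 32.2, 93.9 and 56.0 CPM in RYGB, a difference of 0.77 ± 0.34 that did not pass (adjusted p = 0.15). RYGB 1 and 3 were high for this gene too, and the groups overlapped. Slc25a15, chosen for mention after its values were seen, measured 600.3 to 884 CPM in sham and 245, 276, 179 and 840.3 CPM in RYGB; RYGB 4 lay among the sham libraries, and the adjusted p was 0.059.

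The partner lists in jejunum stand beside 6.32% of all genes that rose and 6.29% that fell. Of 5 enzymes of cytosolic citrate use 2 rose, Fasn by 2.14 (adjusted p = 0.0033) and Acaca by 0.74 (adjusted p = 0.039). Alas1, which starts haem synthesis, was the gene called among 6 of mitochondrial iron use and rose by 1.09 (adjusted p = 0.016), from an average of 106 to 236 CPM. Of 13 mitochondrial content markers 3 rose, Atp5b, Vdac2 and Ppargc1b, and Ppargc1a fell by 1.07 (adjusted p = 0.022). Of 5 mitochondrial one-carbon enzymes 2 rose, Mthfd2 and Shmt2, and Mtch1 rose among 3 family members with other symbols. In the opposite direction, 1 of 9 genes of carrier import fell (Timm10b) and 1 of 4 of the carnitine system (Slc22a5), and of 5 urea cycle genes Asl rose and Arg2 fell. The cycling and crypt cell list summed to 17.9 to 60.9 CPM in sham and to 38.6, 39.1, 158 and 255 CPM in RYGB 1 to 4. In the same order Slc25a37 measured 38.0, 66.8, 35.5 and 86.1 CPM in RYGB 1 to 4. The part of this list in the results was not tested.

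In duodenum no carrier passed, and the largest difference of a member was that of Slc25a37, in the direction opposite to jejunum. Slc25a37 measured 6.7, 13.7, 7.5, 42.3 and 35.0 CPM in sham and 75.0, 38.1, 33.2 and 112 CPM in RYGB. The sham libraries 4 and 5 overlapped with RYGB 2 and 3, and the difference of 1.76 ± 0.57 had an adjusted p of 0.11. The sham libraries 1, 2 and 3, lowest for Slc25a37, were those with pancreatic acinar transcripts at 59925, 88115 and 60423 CPM, against 65.5 and 814 CPM in sham 5 and 4; RYGB 2 had 15023 CPM and the other RYGB libraries 21.7 to 367 CPM. The cycling and crypt list summed to 10.5 to 21.7 CPM in sham and to 701, 131, 31.1 and 479.5 CPM in RYGB 1 to 4, with RYGB 1 and 4 the highest for both this list and Slc25a37. A fit without libraries over 1% pancreatic transcripts left out sham 1, 2 and 3 and RYGB 2. No carrier and no gene passed in it, and 378 genes had an unadjusted p below 0.05, against 2486 with all libraries. In the libraries it kept, Slc25a37 measured 42.3 and 35.0 CPM in sham and 75.0, 33.2 and 112 CPM in RYGB. The part of these cells in the difference was not otherwise tested.

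Slc25a12, the aspartate/glutamate carrier of muscle, was low in duodenum and did not overlap between groups, with 5.7, 5.4, 4.6, 5.9 and 7.2 CPM in sham and 19.1, 13.7, 8.4 and 11 CPM in RYGB (1.01, adjusted p = 0.069). Slc25a33 was lower in all 4 RYGB libraries, at 4.0 to 5.1 CPM against 6.3 to 9.6 CPM (-0.68, adjusted p = 0.10). Slc25a46, an outer-membrane member that acts on mitochondrial shape, differed by 0.86 (adjusted p = 0.092) with overlap.

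The jejunal and duodenal effects were compared directly in the 8 animals that gave both segments (5 sham, 3 RYGB). For Slc25a37 the effect in jejunum minus that in duodenum was -3.38 ± 0.56 (adjusted p = 0.017), and for Slc25a36 it was -1.87 ± 0.38 (adjusted p = 0.028). No other of the 36 members passed, and over the 10663 genes tested 0.525% had a higher and 1.88% a lower effect in jejunum. Under median-of-ratios scaling and with length and GC trends removed Slc25a37 still passed (adjusted p = 0.025 and 0.029) whereas Slc25a36 did not (0.080 and 0.098). Without the animals whose duodenum held more than 1% pancreatic transcripts the difference of Slc25a37 was -2.17 (adjusted p = 0.12) and no gene of the table passed. That fit kept the animals of duodenum libraries sham 4 and 5 and RYGB 1, 3 and 4. The adjusted p of Slc25a37 was 0.057 without the RYGB animal of duodenum library 1 and 0.054 without that of duodenum library 4, and Slc25a36 passed in 3 of the 8 fits that left out an animal.

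**Figure D4:**
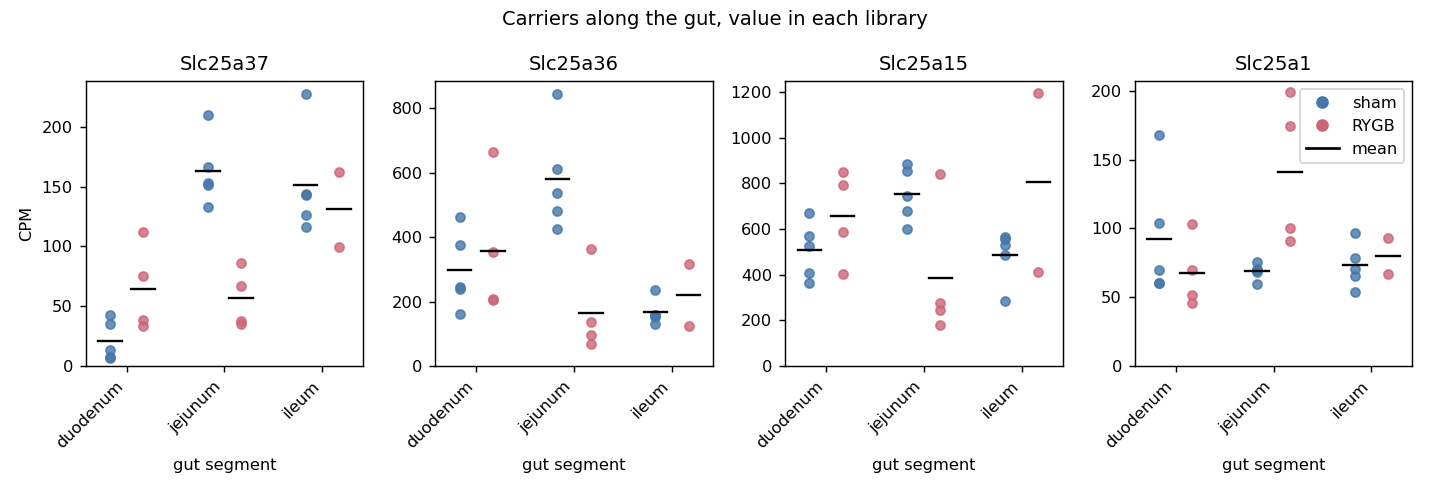
Slc25a37, Slc25a36, Slc25a15 and Slc25a1 in CPM along the gut, a point per library and a line at each group mean (5 sham in each segment; 4, 4 and 2 RYGB). In sham mice Slc25a37 averaged 21.0 CPM in duodenum and 163 in jejunum, and in RYGB mice 64.6 and 56.6.

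In ileum, with 2 RYGB libraries, no member and no gene of the table passed. Slc25a5 was at 459, 481, 538, 291 and 536 CPM in sham and 674 and 1035 CPM in RYGB, without overlap (0.89, adjusted p = 0.99986). Slc25a48, the member with the smallest p, was an ileal gene among these tissues, with 218, 271, 231, 54.0 and 176 CPM in sham and 101 and 4.0 CPM in RYGB, against sham averages of 0.925 CPM in liver and 4.58 CPM in WAT. Sham 4, the library rich in cycling cells, was the low sham library for both genes. The difference of Slc25a48 was -2.90, and it ranged from -5.07 to -0.72 when a library was left out. Slc25a25 was lower in both RYGB libraries (19.2 and 15.4 CPM) than in any sham library (24.7 to 33.4 CPM), and Slc25a37 in ileum overlapped, at 117 to 227 CPM in sham and 162 and 99.7 CPM in RYGB.

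In liver Slc25a16 fell and Slc25a44 rose. Slc25a16 measured 359, 485, 813 and 918 CPM in sham and 266, 152, 145, 167 and 333 CPM in RYGB 1 to 5. The groups did not overlap, the sham libraries themselves spread from 359 to 918 CPM, and the fall was 1.58 ± 0.37 (adjusted p = 0.042). Slc25a44 measured 25.3, 22.0, 13.6 and 16.4 CPM in sham and 40.5, 39.2, 47.3, 42.0 and 49.3 CPM in RYGB. All RYGB libraries were above all sham libraries, and the rise was 1.17 ± 0.29 (adjusted p = 0.045). The same rho, taken against GC content, was -0.48 to -0.23 in sham and -0.18, 0.17, 0.60, 0.52 and 0.08 in RYGB. With length and GC trends removed Slc25a44 differed by 0.32 (adjusted p = 0.49) and Slc25a16 by -1.46 (adjusted p = 0.054). Each of the 2 genes passed in 3 of 9 fits that left out a library and failed without sham 2, 3 or 4 or RYGB 2, 3 or 4, with adjusted p up to 0.16.

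Other liver carriers were split among the bypass mice. Slc25a1 was at 3.5, 2.8, 0.5 and 1.6 CPM in sham and at 2.4, 6.8, 58.2, 43.3 and 2.7 CPM in RYGB, so that RYGB 3 and 4 were far above all others and RYGB 1 and 5 lay in the sham range (2.08 ± 0.84, adjusted p = 0.11). The same libraries were high for Slc25a47, a carrier known from liver, at 11.8, 8.5, 0.7 and 2.5 CPM in sham and 5.0, 8.4, 62.2, 38.3 and 8.2 CPM in RYGB (1.68, adjusted p = 0.15). Slc25a25 was at 5.8, 8.8, 2.4 and 7.4 CPM in sham and 6.5, 39.2, 45, 64.1 and 12.2 CPM in RYGB, with RYGB 1 among the sham values (1.98, adjusted p = 0.067). RYGB 3 and 4 also had the highest rho with GC and the highest hepatocyte sums (110000.0 and 121920 CPM against 44206 to 72134 CPM), and the macrophage list summed to 28.5 to 111 CPM in sham and 54.8 to 867 CPM in RYGB. Sham 1 and 2 and RYGB 2, 3 and 4 were the libraries with inferred totals of 4220000 to 4870000 reads. Slc25a1, Slc25a25 and Slc25a47 were each higher in RYGB 2, 3 and 4 than in RYGB 1 and 5. Slc25a1 and Slc25a47, but not Slc25a25, were also higher in sham 1 and 2 than in sham 3 and 4. Slc25a16 was lower in the same libraries within each group. The part of GC, cell mixture and read depth in the differences was not tested.

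Slc25a5, the leading member in sham liver, measured 701.5, 485.5, 794 and 375 CPM in sham and 439, 185, 149, 200.2 and 328 CPM in RYGB. Only RYGB 1 reached into the sham range, and the difference was -1.23 ± 0.37 (adjusted p = 0.062). It passed under median-of-ratios scaling (-1.45, adjusted p = 0.0498) and with length and GC trends removed (-1.90, adjusted p = 0.047). Slc25a33 was higher in every RYGB library, 17.2 to 42.5 CPM against 7.2 to 17 CPM (1.15, adjusted p = 0.067). In the liver lists 1 of 6 urea cycle genes rose, Asl by 2.08 (adjusted p = 0.037), and 1 of 7 genes of mitochondrial iron use fell, where 2.03% and 2.6% of all genes did so. Slc25a15 and Slc25a13, the carriers of the urea cycle, did not pass in liver.

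In muscle none of the 38 members and none of the 11594 genes passed. The smallest p was that of Slc25a25, at 53.6, 72.5, 33.9 and 65.9 CPM in sham and 13.5, 17.1, 6.4 and 53.1 CPM in RYGB. The first 3 RYGB libraries were below every sham library and RYGB 4 was among them (-1.62 ± 0.52, adjusted p = 0.59). Slc25a28 (mitoferrin 2) measured 17.3 to 21.0 CPM in sham and 8.3 to 16.3 CPM in RYGB and was the member without overlap in muscle (-0.59, adjusted p = 0.60). Slc25a20 measured 151, 76.7, 195 and 143 CPM in sham and 66.4, 67.9, 91.5 and 103 CPM in RYGB, overlapping at sham 2 (-0.72, adjusted p = 0.66). Sham 2 had the lowest sum of slow or oxidative fibre markers, 132 CPM against 619 to 2025 CPM in the other muscle libraries. Slc25a4, the most abundant member, was at 2341 to 2600.4 CPM in sham and 1497 to 3959.5 CPM in RYGB, with RYGB 3 the highest.

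**Figure D5:**
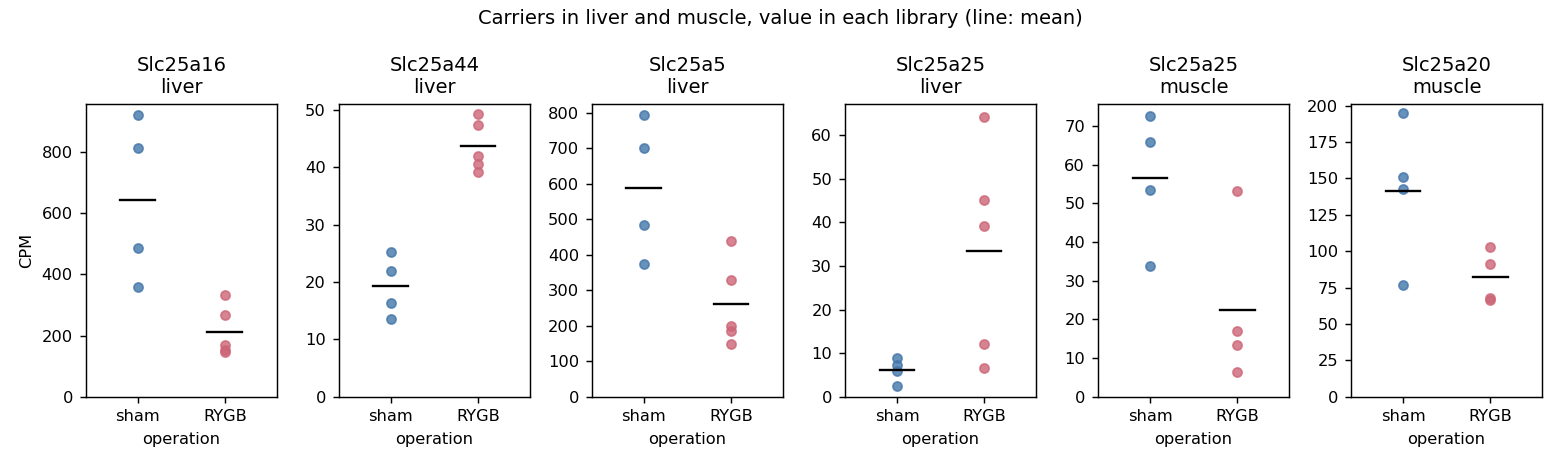
Slc25a16, Slc25a44, Slc25a5 and Slc25a25 in liver (4 sham, 5 RYGB) and Slc25a25 and Slc25a20 in muscle (4 and 4), in CPM with a point per library and a line at each mean. Slc25a16 and Slc25a44 separate in liver, Slc25a25 is spread among the bypass livers, and the muscle groups overlap.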

How the data were processed

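Bulk RNA was sequenced from 6 tissues, with total RNA and PrepX libraries per the labels' protocols. The deposited values are gene CPM to 1 decimal place, in a table for each tissue. HTSeq and GRCm38 are named in the submitters' processing notes, whereas aligner, gene models and strand setting are not given in those notes or the labels. A gene has a row where it reached 1 CPM in a number of libraries equal to the size of the smaller group (0 exceptions), so a member can lack a row in a tissue. Repeated lines (339 in ileum, 374 in WAT) and lines without a gene (2 in ileum, 6 in liver) were dropped. CPM carry no read totals for most libraries, so a test on counts was not run.

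Libraries were grouped by title and surgery label. Per tissue, limma 3.58.1 (run in R 4.3.3, with the trend and robust options of eBayes) was fitted to log2(CPM + 1) of all genes with the operation as the only term; p-values are two-sided and Benjamini-Hochberg adjusted over all genes, with a threshold of 0.05. Adding 1 understates the change of scarce genes. The difference between segments came from 1 model with a block for the animal. Each p-value is judged against the variation among individual mice. The fits were tested on simulated data. Exon lengths and positions are from GENCODE for GRCm38 and promoters from RefSeq (GRCm38.p6). Python 3.11.15 with pandas 2.3.3 and matplotlib 3.10.9 prepared tables and figures.

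The members, the lists and the tests were chosen with earlier results of these data known. Some results are counted but not reported here by name. Named otherwise are members past the threshold, the 3 highest per kb and the 3 smallest p of each tissue, members without overlap and a difference of at least 1, those listed in 1 tissue, and a fixed set: Slc25a1, Slc25a4, Slc25a5, Slc25a10, Slc25a13, Slc25a20, Slc25a25, Slc25a28, Slc25a37, Slc25a42 and Slc25a47. Alternatives were median-of-ratios scaling, a pseudocount of 0.1, a mean of at least 5 CPM and eBayes without trend and robust options. Each library was left out in turn. A block for the replicate number was run on libraries with a same-numbered one in the other group. In duodenum, libraries over 1% pancreatic transcripts were left out. In WAT, the highest library of a list was left out where its sum passed 3 times the tissue median. The lists were lymphocyte, macrophage, erythroid, endothelial, smooth muscle, skeletal muscle, and brown or beige adipocyte. Removal of length and GC trends per library (lowess span 0.3), library weights and the segment difference without pancreas-rich animals were added after seeing the data.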

Additional observations from a re-analysis of the deposited data

Results flagged for a closer look

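The effect of bypass on Slc25a37 differed between jejunum and duodenum by -3.38 (adjusted p = 0.017) and that on Slc25a36 by -1.87 (adjusted p = 0.028), in the test of the difference between segments. Neither passed without the animals whose duodenum was rich in pancreatic transcripts. Slc25a36 also failed under median-of-ratios scaling and with length and GC trends removed. Of 94 groups of 4 or 5 libraries examined for the members named, 3 held a library far from the others, and chance gives about 1 in 20 groups. These were Slc25a42, a coenzyme A carrier, in jejunum, where RYGB 4 measured 10.4 CPM and the next library 4.9 CPM; Slc25a36 in WAT, where RYGB 3 measured 126.8 CPM and the next 79.9 CPM; and Slc25a34 in WAT, where sham 5 measured 4.9 CPM and the next 2.3 CPM. Without RYGB 4 the difference of Slc25a42 in jejunum passed the threshold (-0.84, adjusted p = 0.016).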

How the results depend on the processing

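None of the 51 differences of named members recomputed under the alternatives changed sign; members given only by their levels were not recomputed. The replicate block was fitted only to libraries with a same-numbered one in the other group. This also dropped sham 5 in duodenum, jejunum and WAT, sham 3, 4 and 5 in ileum and RYGB 5 in liver. With that block the count of carriers past the threshold was 1 in duodenum (Slc25a37, 2.03, adjusted p = 0.022) and 0 in liver, 2 in jejunum, 0 in ileum, 21 in WAT and 0 in muscle. Over all genes the block fit called 308 up and 142 down in duodenum, 192 and 263 in jejunum, and 1475 and 2613 in WAT. The replicate numbers do not pair the libraries, since same-numbered sham and RYGB libraries came from different animals. Correlations of same-numbered libraries ran from -0.317 to 0.556 in duodenum, from -0.253 to 0.376 in ileum and from -0.097 to 0.128 in WAT. Library weights gave 9 carriers in duodenum and 13 in liver. Over all genes the weights called 1576 up and 564 down of 10930 in duodenum. In liver they called 1583 up and 1675 down of 10285. In liver the count was 0 without trend and robust options and 1 with length and GC trends removed. In WAT it was 12 without RYGB 1, RYGB 4 and sham 3, left out for transcripts of other cells. That WAT fit called 626 up and 1080 down of all 12690 genes. The segment difference gave 1 carrier under median-of-ratios scaling, 1 with trends removed and 0 without pancreas-rich animals. With each library or animal left out, counts ran from 0 to 3 in duodenum (3 without RYGB 3), 2 to 8 in jejunum (8 without RYGB 4), 0 to 0 in ileum, 0 to 10 in liver (10 without RYGB 1; 0 without sham 2, 3 or 4 or RYGB 2, 3 or 4), 19 to 23 in WAT, 0 to 0 in muscle and 0 to 2 for the segment difference (0 without the RYGB animal of duodenum library 1). More genes of the whole table were called in the fits with the highest counts. Without RYGB 3 in duodenum 820 of 10930 genes rose and 162 fell, against 14 and 24 with all libraries. Without RYGB 4 in jejunum it was 1078 and 1180 of 11021, against 697 and 693. Without RYGB 1 in liver it was 1379 and 874 of 10285, against 209 and 267. Where no value above shows a cause, the cause was not tested. The order of the 3 highest members per tissue by CPM per kb shared 13 of 18 places with the order by CPM. Depth is unknown for most libraries, and the steps of 0.1 CPM limit scarce members such as Slc25a47; ileum has 2 RYGB libraries.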
